A study of Mus musculus with 8 samples.

Results

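The 10 genes described here are Gpx4, Slc7a11, Slc3a2, Gclm, Acsl4, Hmox1, Fth1, Ftl1, Tfrc and Slc40a1. They act in defence against lipid peroxides, in iron handling or, for Acsl4, in the supply of the lipids that are oxidised. They were selected by name from a list of ferroptosis, iron and glutathione genes, and all 10 were found among the 19673 genes of the deposited table. RNA came from cells gated as live and CD45+CD3e+CD8+, taken from tumours that the mouse mammary tumour line Py8119 had formed in Mtdh KO hosts (KO, n = 4) or in WT hosts (WT, n = 4). The labels name no treatment, and the kind of Mtdh allele and the age, sex and strain of the hosts are not given in the sources used here. The labels call the 4 libraries of a group biological replicates without saying whether each came from a separate animal, so the p-values measure the spread between these libraries. Each number is a normalized value, which is an estimated read count of a gene divided by a library size factor, and it is not corrected for gene length.

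Ferroptosis is a form of cell death in which iron drives the oxidation of polyunsaturated lipids in membranes. GPX4 reduces lipid peroxides with glutathione, and glutathione is built from cysteine that enters the cell as cystine through the exchanger made of SLC7A11 and SLC3A2. Iron enters through the transferrin receptor, is stored in ferritin, is freed from haem by haem oxygenase and leaves through ferroportin. In tumours, CD8 T cells that take up oxidised or polyunsaturated lipids can undergo ferroptosis, and macrophages are known for recycling iron.

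The libraries held an estimated 16400000 to 29600000 reads, copied from an estimated 115000 to 631000 distinct cDNA fragments. The estimated mean value of 1 fragment was 24 in the richest library (WT library 3) and 149 in the poorest (KO library 2). Mtdh ranged from 2538 to 5118 in KO and from 6407 to 12745 in WT, with no overlap (log2 fold change -1.23, SE 0.25, adjusted p = 0.0400 by limma). That call was lost (adjusted p = 0.0560 to 0.241 by limma) without KO library 2, 3 or 4 or WT library 1 or 2. The deleted part of Mtdh is not given in the sources used here, so this is only a partial check of the labels. Cd8a, which defines the sort, ranged from 7561 to 13355 in KO and from 1565 to 6545 in WT, without overlap. Its log2 fold change of 1.15 (SE 0.34) did not pass (adjusted p = 0.327 by limma). Of all genes tested, 2.02% had every KO library above every WT library. Of 12 CD8 T cell markers, 11 had a positive log2 fold change, with a median of 0.72, and their sum ranged from 20074 to 44606 in KO and from 7826 to 26381 in WT. Macrophage transcripts were also present in every library, with Lyz2 at 75242 to 211543. Summed over 16 macrophage and monocyte markers, the level ranged from 119800 to 259227 in KO and from 193460 to 307133 in WT. Of these 16 markers, 15 had a negative log2 fold change, with a median of -0.44, and none was at 0 in any library. Both of these sums overlapped between the groups. No marker of these or the other cell type lists passed limma's adjusted p of 0.05. Over all genes tested, 6992 had a positive and 9128 a negative log2 fold change. Among the other marker lists, the summed level did not overlap for dendritic cell markers (2269 to 3485 in KO, 1083 to 1650 in WT), B cell markers (457 to 1090 in KO, 164 to 348 in WT) and red blood cell markers (at most 1.299 in KO, 101 to 256 in WT). Of 7 dendritic cell markers tested, 5 had a positive and 2 a negative log2 fold change. Of 3 B cell markers tested, 2 were positive and 1 negative, and all 3 red blood cell markers tested were negative. Several genes below are strongly expressed in macrophages as well as in T cells, and the part of other cells in their values was not tested. In bulk RNA, fewer cells of a type and less RNA per cell cannot be told apart.

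None of the 10 genes passed limma's test of KO against WT at an adjusted p of 0.05, where 38 of 16120 genes tested (0.236%) did, 0.211% higher and 0.0248% lower in KO. At an unadjusted p under 0.05, 1 of the 10 passed, Slc7a11, against 6.7% of all genes tested. All 10 had overlapping groups, whereas the groups did not overlap for 4.11% of all genes, with KO above in 2.02% and below in 2.09%. The log2 fold change was positive for 5 members and negative for 5, and their median was 0.05, beside -0.12 over all genes tested. All 10 reached the minimum mean of 10 and so entered the test.

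**Figure D1:**
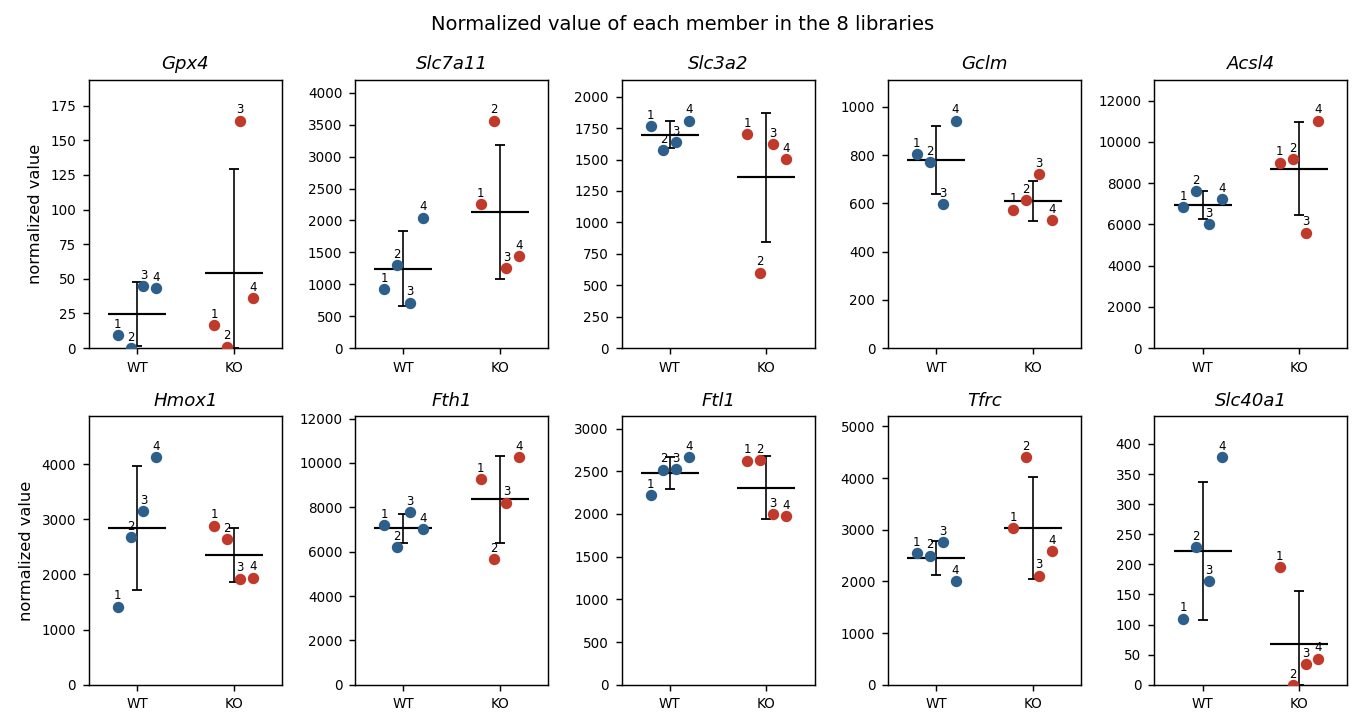
Normalized value of each of the 10 genes in WT and KO libraries, with the library number beside each point. Horizontal lines are group means and bars are the SD over 4 libraries, drawn down to 0 at most. Every gene has overlapping groups, and KO library 2 holds the highest Slc7a11 and Tfrc and the lowest Slc3a2 and Fth1.

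The 2 chains of the cystine exchanger differed in pattern. Slc7a11 (ENSMUSG00000027737, chromosome 3, 49846975 to 50398063 of mm39) encodes the chain that carries cystine in and glutamate out. Its values were 2256, 3565, 1248 and 1446 in KO libraries 1 to 4 and 927, 1305, 713 and 2046 in WT libraries 1 to 4. KO libraries 1 and 2 lay above every WT library, and KO libraries 3 and 4 lay within the WT range. The mean was 2129 ± 1052 in KO and 1248 ± 586 in WT (n = 4 each, SD), and the log2 fold change of 0.76 (SE 0.35, 95% confidence interval 0.03 to 1.49) did not pass (adjusted p = 0.732 by limma). Without KO library 2 it was 0.47. This was the lowest adjusted p among the 10 genes.

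Slc3a2 (ENSMUSG00000010095, chromosome 19, 8684246 to 8700733) encodes the heavy chain that SLC7A11 shares with other amino acid transporters and that brings it to the cell surface. Its values were 1705, 601, 1624 and 1505 in KO and 1765, 1576, 1640 and 1809 in WT. The WT libraries were tightly grouped, and only KO library 2 lay far from the rest, at a value worth about 4.02 fragments. Slc3a2 had a log2 fold change of -0.43 (SE 0.31, 95% confidence interval -1.07 to 0.21, adjusted p = 0.783 by limma), which was -0.07 without KO library 2. The log2 ratio of Slc7a11 to Slc3a2 within a library was 0.63 ± 1.33 in KO and -0.56 ± 0.62 in WT (n = 4 each, SD), a difference of 1.19 (exact two-sided permutation p = 0.143, adjusted over 5 ratios 0.357). Without KO library 2 that difference was 0.55.

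Gclm (ENSMUSG00000028124, chromosome 3, 122039206 to 122064381) encodes the modifier chain of glutamate-cysteine ligase, which carries out the first step of glutathione synthesis. It was at 574, 614, 721 and 530 in KO and at 805, 769, 598 and 943 in WT. In 3 of the 4 WT libraries Gclm was above every KO library, and WT library 3 lay among the KO values. Between the groups its log2 fold change was -0.34 (SE 0.33, 95% confidence interval -1.03 to 0.35, adjusted p = 0.834 by limma). The lncRNA Gm17494 overlaps Gclm on the other strand, and strand is not stated in the sources used here, so reads of the pair cannot be told apart. Gclc (ENSMUSG00000032350, chromosome 9, 77661817 to 77701767), the catalytic chain, was at 901, 558, 1092 and 1021 in KO and 1666, 1074, 1015 and 1563 in WT. Its log2 fold change of -0.58 (SE 0.31) had the sign of that of Gclm and did not pass either (adjusted p = 0.767 by limma). The log2 ratio of Gclm to Gclc was -0.51 ± 0.46 in KO and -0.76 ± 0.23 in WT (n = 4 each, SD; exact two-sided permutation p = 0.486).

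Among the 8 members whose promoters were available, only Gclm held the core of the antioxidant response element there. That element is the DNA motif through which NRF2 (the product of Nfe2l2) turns on genes of glutathione synthesis. The core, TGACNNNGC, was searched on both strands of RefSeq promoters on GRCm38.p6, from 250 bases before to 50 after each gene start. Promoters were found for 8 of the 10 genes, all but Hmox1 and Slc40a1, in 13 windows. Of these 1 held the core, beside 12.4% of 32851 windows of all genes, so the members did not exceed that share. In Gclm the core begins 134 bases before the start, on the strand opposite to the gene. Gclm and Slc7a11 are named together as NRF2 targets. Their log2 fold changes were -0.34 (SE 0.33) and 0.76 (SE 0.35), and neither passed (adjusted p = 0.834 and 0.732 by limma). Whether the core bears on these values was not tested. The bases around the core, at chr3:122245398-122245456 on the plus strand, are shown with the core in capitals, because no other member promoter searched held it.
Gclm promoter: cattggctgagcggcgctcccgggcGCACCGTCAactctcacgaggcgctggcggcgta
The match describes these letters only, and binding was not measured.

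Gpx4 (ENSMUSG00000075706, chromosome 10, 79883000 to 79892273), the selenoprotein that repairs lipid peroxides, was listed at 16.3, 1.13, 164 and 36.1 in KO and at 9.30, 0, 45.0 and 43.5 in WT. KO library 3 was the highest, at a value worth an estimated 4.02 fragments, and the other 7 libraries were each worth under 2. Its log2 fold change of 0.86 had an SE of 2.12 (95% confidence interval -3.57 to 5.29, adjusted p = 0.957 by limma). No change was detectable at these low listed values. A copy of Gpx4, the transcribed processed pseudogene Gpx4-ps2, was listed at far higher values. It ranged from 249 to 666 in KO and from 286 to 843 in WT, and a further copy, Gpx4-ps1, was at 0 in 7 libraries. The copies together held 70.7% to 100% of the sum of the gene and its copies.

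The letters of gene and copy show how close they are. In the GENCODE M21 transcripts (GRCm38), the aligned part of Gpx4 and Gpx4-ps2 is 733 bases long and 731 of these are identical. Of all 50-base windows of the longest coding Gpx4 transcript, 61.7% recur letter for letter in Gpx4-ps2, and of all 100-base windows 48.4% do. The aligned part holds 509 of the 759 coding bases of that transcript, and the windows of shorter Gpx4 transcripts were not compared. The stretch around the selenocysteine codon is shown, coding bases 358 to 414, with that codon (TGA, codon 129 of this transcript) in capitals. Gene and copy differ in 1 base of it.
Gpx4: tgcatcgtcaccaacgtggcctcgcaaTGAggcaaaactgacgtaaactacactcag
Gpx4-ps2: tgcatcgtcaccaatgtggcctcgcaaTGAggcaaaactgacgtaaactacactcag
The read length and the rule for reads with several matches are not given in the sources used here, so reads of the gene and of the copy cannot be told apart. Summed with its copies, Gpx4 was at 397, 667, 561 and 285 in KO and 295, 525, 621 and 921 in WT. That sum had a log2 fold change of -0.27 (SE 0.44, 95% confidence interval -1.19 to 0.65, adjusted p = 0.920 by limma), with a sign opposite to that of Gpx4 alone. This sum was chosen after the values had been seen.

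Acsl4 (ENSMUSG00000031278, chromosome X, 141100989 to 141173531) encodes the enzyme that loads polyunsaturated fatty acids onto coenzyme A, which supplies the lipids that ferroptosis oxidises. It was at 8992, 9170, 5605 and 11026 in KO and at 6825, 7614, 6023 and 7234 in WT. In KO libraries 1, 2 and 4 Acsl4 was above every WT library, whereas KO library 3 was the lowest of all 8. The mean was 8698 ± 2258 in KO and 6924 ± 682 in WT (n = 4 each, SD), with a log2 fold change of 0.29 (SE 0.22, 95% confidence interval -0.16 to 0.74, adjusted p = 0.785 by limma). Leaving out 1 library moved the log2 fold change to between 0.16 (without KO library 4) and 0.49 (without KO library 3). None of its 50-base windows recurs in another gene. The log2 ratio of Gpx4 to Acsl4 differed between the groups by 0.56 (exact two-sided permutation p = 0.83), or by -0.56 with the copies of Gpx4 summed in.

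Haem oxygenase, encoded by Hmox1 (ENSMUSG00000005413, chromosome 8, 75820249 to 75827217), splits haem into iron, carbon monoxide and biliverdin. Hmox1 was at 2888, 2637, 1924 and 1943 in KO and at 1419, 2677, 3154 and 4123 in WT. The WT libraries spanned the whole range, with WT library 1 the lowest of the 8 and WT library 4 the highest. The mean was 2348 ± 490 in KO and 2843 ± 1124 in WT (n = 4 each, SD), and the log2 fold change was -0.20 (SE 0.29, 95% confidence interval -0.80 to 0.40, adjusted p = 0.898 by limma). Its sign turned without WT library 4 (0.01).

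Iron-responsive elements are short RNA hairpins to which iron regulatory proteins bind when iron is scarce. In a 5′ UTR they hold back translation, and in the 3′ UTR of Tfrc they protect the RNA from decay. The hairpins of 4 members are shown because RNA values bear on the control of Tfrc and say little of the control of Fth1, Ftl1 and Slc40a1, which acts on translation. The loop CAGTGN was searched on the transcript strand in the UTRs of the GENCODE M21 coding transcripts, with 5 paired bases on its sides and a C before them. It was found once in the 5′ UTR of Fth1, Ftl1 and Slc40a1 and 4 times in the 3′ UTR of Tfrc, and in none of the other 6 members. Anywhere in their coding transcripts, 1.34% of 21877 coding genes held such a loop and stem. Capitals mark the loop, and the number is its first base within the UTR.
Fth1, 5′ UTR 22: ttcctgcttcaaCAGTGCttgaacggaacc
Ftl1, 5′ UTR 90: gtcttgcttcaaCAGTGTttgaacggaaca
Slc40a1, 5′ UTR 102: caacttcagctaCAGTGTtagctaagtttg
Tfrc, 3′ UTR 898: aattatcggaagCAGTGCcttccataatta
Tfrc, 3′ UTR 1277: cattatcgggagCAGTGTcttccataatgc
Tfrc, 3′ UTR 1342: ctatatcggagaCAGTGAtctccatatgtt
Tfrc, 3′ UTR 1389: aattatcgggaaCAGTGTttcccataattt
The matches describe the reference letters, and protein binding was not measured.

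Tfrc (ENSMUSG00000022797, chromosome 16, 32427738 to 32451612), the transferrin receptor CD71, which dividing T cells raise to take up iron, was at 3038, 4400, 2114 and 2586 in KO and at 2555, 2501, 2761 and 2000 in WT. KO libraries 1 and 2 were above every WT library, and KO libraries 3 and 4 lay within the WT range, as for Slc7a11. The mean was 3035 ± 985 in KO and 2454 ± 323 in WT (n = 4 each, SD), and the log2 fold change was 0.26 (SE 0.24, 95% confidence interval -0.25 to 0.77, adjusted p = 0.834 by limma). Without KO library 2 the log2 fold change was 0.07. The 12 cell cycle genes of a list that includes Mki67 had a median log2 fold change of -0.12, as over all genes, with none called at a limma adjusted p or an unadjusted p of 0.05.

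Ferritin stores iron in a shell of heavy and light chains. Fth1 (ENSMUSG00000024661, chromosome 19, 9957962 to 9962462), the heavy chain, which oxidises iron, was at 9281, 5677, 8211 and 10252 in KO and at 7197, 6202, 7772 and 7028 in WT. In KO libraries 1, 3 and 4 Fth1 was above every WT library, and KO library 2 was the lowest of all 8. For Fth1 the log2 fold change was 0.22 (SE 0.21, 95% confidence interval -0.22 to 0.65, adjusted p = 0.834 by limma). Leaving out 1 library moved it to between 0.11 (without KO library 4) and 0.39 (without KO library 2). The copies of Fth1 that were counted, Fth1-ps and Fth-ps2, held at most 5.31% of the sum of gene and copies in any library. Gm6977, which shares the most 50-base windows with Fth1 (4.01%), was not counted.

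Ftl1 (ENSMUSG00000050708, chromosome 7, 45107368 to 45109308), the light chain, which helps to form the iron core, was at 2625, 2627, 2000 and 1971 in KO and at 2223, 2518, 2521 and 2662 in WT. As listed, without its near-identical copy, it varied least of the 10 genes across the 8 libraries. Its root mean square deviation was 0.17 on the log2 scale, and its log2 fold change was -0.12 (SE 0.22, 95% confidence interval -0.58 to 0.34, adjusted p = 0.933 by limma). A near-identical gene, Ftl1-ps1, took 45.9% to 68.1% of the sum of both. Of the 910 aligned bases, 906 are identical, and 73.4% of the 50-base windows of the longest coding Ftl1 transcript recur in Ftl1-ps1. The coding stretch of 60 bases with the most differences, bases 445 to 504, holds 2, in capitals.
Ftl1: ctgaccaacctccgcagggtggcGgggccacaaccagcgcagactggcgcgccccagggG
Ftl1-ps1: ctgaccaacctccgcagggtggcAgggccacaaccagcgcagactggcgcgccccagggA
With Ftl1-ps1 added, the light chain was at 8233, 4930, 4481 and 5618 in KO and at 4686, 4969, 6363 and 4924 in WT, and its log2 fold change turned to 0.12 (SE 0.22, adjusted p = 0.927 by limma). The log2 ratio of Fth1 to Ftl1 was 1.84 ± 0.54 in KO and 1.505 ± 0.19 in WT (n = 4 each, SD), a difference of 0.33 (exact two-sided permutation p = 0.286, adjusted over 5 ratios 0.476). With copies summed in, that difference was 0.11.

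**Figure D2:**
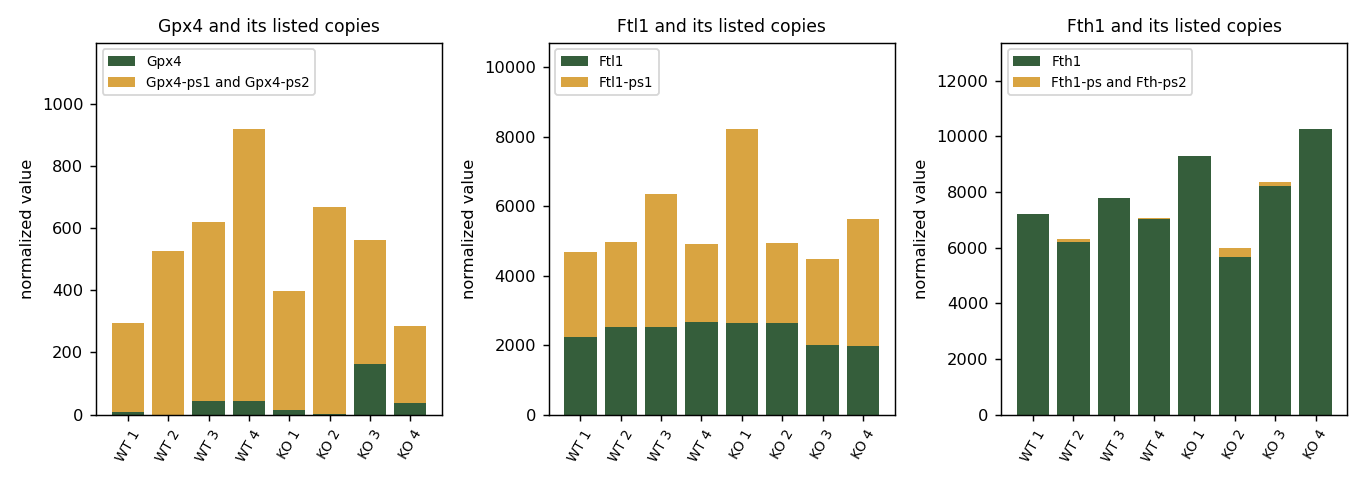
Normalized value of Gpx4, Ftl1 and Fth1 (green) and of their listed copies (yellow), stacked for each of the 8 libraries, on a linear axis from 0. The copies make up most of the Gpx4 bars (70.7% to 100%), about as much as the gene itself for Ftl1 (45.9% to 68.1%), and at most 5.31% for Fth1.

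Slc40a1 (ENSMUSG00000025993, chromosome 1, 45947228 to 45965683) encodes ferroportin, the only known exporter of iron from cells, and is high in iron-recycling macrophages. It was listed at 196, 0, 33.8 and 43.4 in KO and at 110, 228, 172 and 378 in WT. KO libraries 2, 3 and 4 were below every WT library, and KO library 1 lay within the WT range. The macrophage markers had a median log2 fold change of -0.44, and their part in the Slc40a1 values was not tested. The KO values of Slc40a1 were worth an estimated 2.52 fragments at most and the WT values 1.80 to 11.4. The log2 fold change was -3.10 (SE 1.51, 95% confidence interval -6.26 to 0.05, adjusted p = 0.75 by limma), and it was -1.59 without KO library 2, where the gene was listed at 0. The log2 ratio of Tfrc to Slc40a1, import over export, was 3.95, 12.1, 5.93 and 5.86 in KO and 4.53, 3.45, 3.99 and 2.40 in WT, a difference of 3.37 (exact two-sided permutation p = 0.0857, adjusted over 5 ratios 0.357), or 1.65 without KO library 2. With 4 libraries against 4 the smallest possible p is 0.0286, so a single ratio of the 5 could not go below an adjusted p of 0.143.

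**Figure D3:**
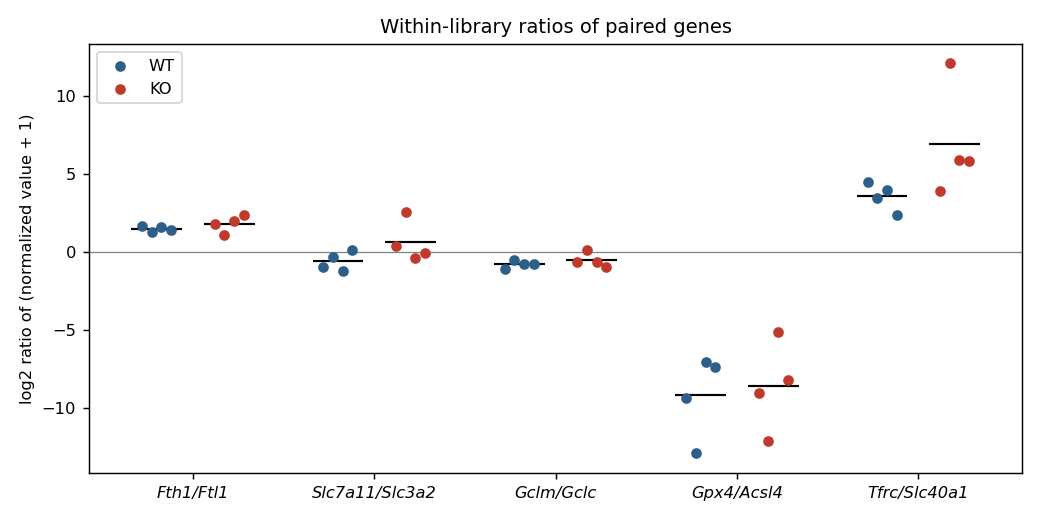
The log2 ratio of paired genes within each library, with a pseudocount of 1, for WT (blue) and KO (red), and lines at the group means. All 5 ratios overlap between the groups, and KO library 2 is the highest for Slc7a11/Slc3a2, Gclm/Gclc and Tfrc/Slc40a1.

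The fold changes of the 10 genes differed widely in precision. It was lowest for Gpx4 and Slc40a1, whose listed values are worth few estimated fragments. For Gpx4 the sum with its copies had an SE of 0.44, beside 2.12 for the gene as listed. For Ftl1 the interval excluded a log2 change of 1 in either direction, and it did so also for Acsl4, Fth1, Hmox1 and Tfrc. For Slc7a11 a change of 1 to the higher side lay inside the interval, and for Slc3a2 and Gclm a change of 1 to the lower side did.

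**Figure D4:**
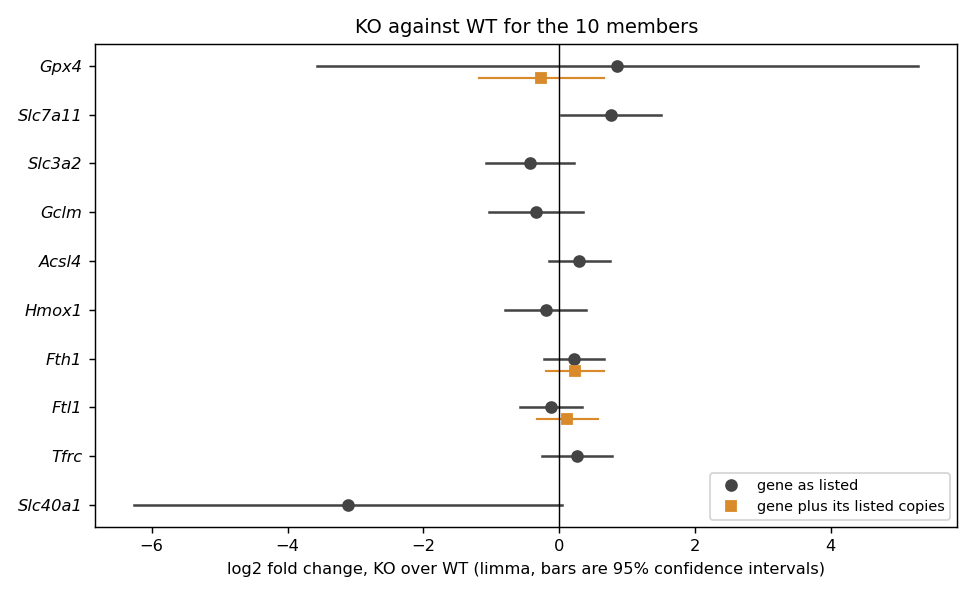
The log2 fold change of KO over WT for each gene, from limma, with its 95% confidence interval (dark points), and for Gpx4, Fth1 and Ftl1 also with the listed copies summed in (orange squares). The interval of Slc7a11 alone lies on one side of 0 (0.03 to 1.49), and those of Gpx4 and Slc40a1 are the widest.

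Per kb of the longest coding transcript and without copies, Fth1 had the highest median over the 8 libraries, at 5010 normalized reads per kb, and its range did not overlap that of the next gene, Ftl1 (2603). Hmox1 (1693) and Acsl4 (1406) followed, with ranges that overlapped each other, and Ftl1 overlapped Hmox1. Slc3a2 (580) and Tfrc (526) overlapped each other. Acsl4 and Slc3a2 did not overlap, nor did Tfrc and Slc7a11 (149). Slc7a11 and Gclm (119) overlapped, as did Gclm and Slc40a1 (41.8) and Slc40a1 and Gpx4 (26.4). Genes further apart in this order could overlap too. Slc3a2 (down to 214) overlapped Slc7a11 (up to 386), and Ftl1 (down to 2036) overlapped Acsl4 (up to 2088). Gpx4 (up to 165) overlapped Slc7a11 (down to 77.3) and Gclm (down to 94.9). With copies summed in, the order changed: the median per kb was 5113 for Ftl1, beside 5019 for Fth1, with overlapping ranges, and 546 for Gpx4, between those of Slc3a2 and Tfrc.

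By the root mean square difference of centred log2 profiles over the 8 libraries, among 9168 genes with a mean of at least 100, Acsl4 was nearest to Sgk1 (0.08), Ldha (0.11) and Pim1 (0.14), and its own deviation was 0.31. Slc7a11 was nearest to Rnf19b (0.17), Arl5b (0.26) and Bcl2l11 (0.27), with a deviation of its own of 0.69. Tfrc was nearest to Virma (0.13), Ascc2 (0.13) and Rtf1 (0.14), with a deviation of 0.33. None of these neighbours is another gene of the 10.

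The other genes of these pathways showed no call either. Of 88 further genes in 6 lists, 74 were tested, 33 with a positive and 41 with a negative log2 fold change, and their median was -0.06 beside -0.12 over all genes. None passed limma's adjusted p of 0.05 (1 did, Cd163, with weights for the libraries, adjusted p = 0.0457), and 8 had an unadjusted p under 0.05, where 6.7% of all genes tested did. Lipid peroxide defence had a median of 0.15 over 17 genes and glutathione and cysteine of -0.09 over 14. Peroxidation substrates and oxidases had a median of -0.05 over 14, iron uptake and release of 0.04 over 11, iron storage and sensing of -0.16 over 10, and haem handling of -0.07 over 8.

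In the lipid peroxide defence list, the highest mean was that of Nfe2l2, the transcription factor NRF2. Nfe2l2 was at 8477, 11409, 4528 and 9928 in KO and at 5306, 5445, 4495 and 6304 in WT (log2 fold change 0.60, SE 0.25, adjusted p = 0.707 by limma), with KO library 3 inside the WT range. Prdx6, a peroxiredoxin that reduces phospholipid peroxides, was at 2068, 1822, 2305 and 1892 in KO and at 1282, 1005, 1805 and 1459 in WT. Its groups did not overlap, and its log2 fold change of 0.57 (SE 0.25) did not pass (adjusted p = 0.730 by limma). Txnrd1, the thioredoxin reductase and a further NRF2 target, had a log2 fold change of 0.50 (SE 0.26, adjusted p = 0.767 by limma). Set beside these, Slc7a11 was at 0.76, Fth1 at 0.22, Hmox1 at -0.20, Gclm at -0.34 and Gclc at -0.58. Genes named as NRF2 targets thus lay on either side of 0, and none of these passed limma's test.

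Among iron genes, Trf, the iron carrier transferrin, was at 6807, 8906, 5497 and 9906 in KO and at 5350, 6115, 5145 and 5099 in WT (log2 fold change 0.49, SE 0.21, adjusted p = 0.730 by limma). Cp, the ferroxidase ceruloplasmin that works beside ferroportin, was at 4243, 3051, 3238 and 2595 in KO and at 5826, 10458, 4071 and 3276 in WT (log2 fold change -0.73, SE 0.29, adjusted p = 0.674 by limma). Aco1, which in its iron-free form is an iron regulatory protein, had a log2 fold change of -2.62 (SE 1.17, adjusted p = 0.730 by limma), which was -0.83 without KO library 2, where it was at 1.10. Lrp1, a receptor that takes up haem bound to hemopexin, and Pcbp2, an iron chaperone, had the highest means of their lists and log2 fold changes of -0.31 and -0.17. The ether lipid enzyme Far1 and the haem-sensing repressor Bach1, also the highest of their lists, were at -0.05 and 0.02.

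Cd163 and Alox5 had the most negative log2 fold changes of the 74 genes. Cd163, the macrophage receptor that takes up haemoglobin with haptoglobin, was at 472, 2.20, 20.8 and 63.9 in KO and at 363, 426, 692 and 674 in WT. KO library 1 lay within the WT range and the other KO libraries far below it, the same order of libraries against the WT range as for Slc40a1. Its log2 fold change was -3.76 (SE 1.15, adjusted p = 0.365 by limma). Without KO library 2, where Cd163 was at 2.20, far under the estimated mean value of 1 fragment (149), it was -2.57. In KO libraries 1, 3 and 4 the Cd163 values were worth an estimated 6.06, 0.51 and 1.68 fragments, so -2.57 still rests on few fragments. Alox5, the 5-lipoxygenase of myeloid cells, was at 101, 0, 2.60 and 374 in KO and at 269, 350, 376 and 412 in WT (log2 fold change -4.18, SE 1.56, adjusted p = 0.642 by limma). Without KO library 2, where Alox5 was listed at 0, it was -2.75. Slc40a1, Cd163 and Alox5 are known in macrophages, whose markers C1qa and Lyz2 had log2 fold changes of -0.43 and -0.49, and the part of macrophage number in them was not tested. Hbb-bs, a globin gene of red cells, whose copies can share reads, reached at most 1.10 in KO and ranged from 68.8 to 177 in WT. Its log2 fold change of -6.34 (SE 1.90) did not pass (adjusted p = 0.331 by limma). Every KO library lay below every WT library for 2.09% of all genes tested.

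**Figure D5:**
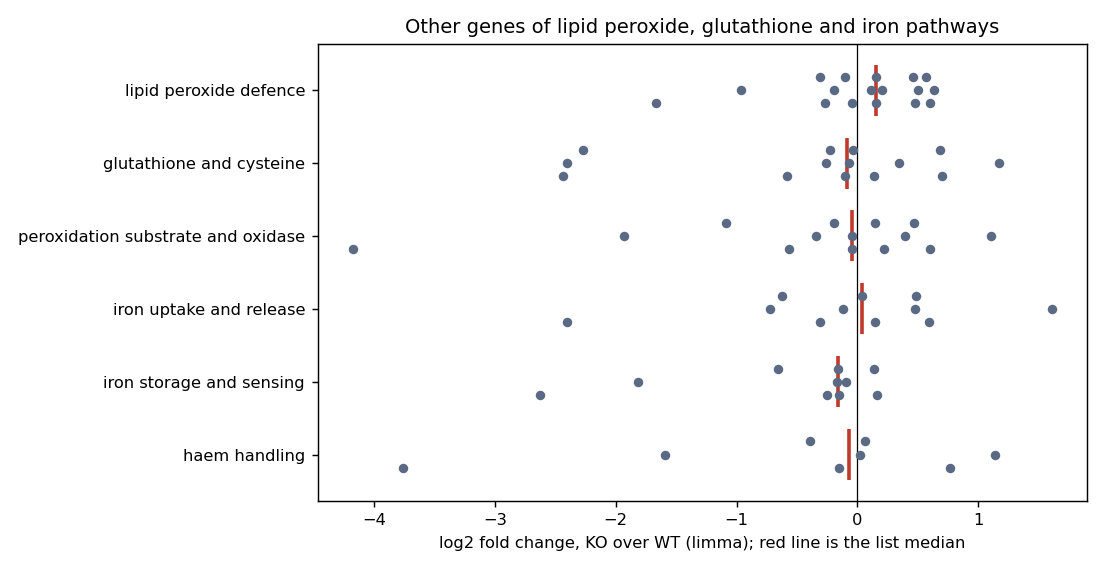
The log2 fold change of KO over WT for the 74 tested genes of 6 pathway lists (points) and each list's median (red line). The medians lie between -0.16 and 0.15, and the points farthest to the left are Alox5 (-4.18) and Cd163 (-3.76).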

How the data were processed

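Bulk RNA was measured in 8 libraries, 4 per group. The deposited table holds a normalized signal per gene and library, made by the authors. The submitters' processing notes name STAR 2.7.8a, Partek, DESeq2 and mm39 without roles, and coordinates are those of the file. Per the labels' protocols, ribosomal RNA was depleted. The 10 genes and all lists were chosen with earlier results of these data known.

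Values were compared as log2(value + 1) with limma 3.58.1 (R 4.3.3, intensity trend, two-sided, Benjamini-Hochberg) over 16120 genes with a mean of at least 10, and fold changes are on that scale. For low genes they depend on the pseudocount, and where a library is near 0 they exceed the log2 ratio of the group means: with a pseudocount of 10, Slc40a1 was at -2.18 and Alox5 at -2.89. Count tests were not used: in units of 1 read, 81.7% to 88.1% of values up to 500 reads were whole within 0.02. Distinct cDNA fragments were estimated from how many genes averaging 20 to 500 elsewhere fell under 3 reads in a library, assuming Poisson sampling. They are rough, because a gene truly absent from a library counts as missed, and the value of 1 fragment is a mean. Values well under that mean occur, so the estimates give only the depth behind low values. The code was tested on simulated data.

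Ratios were tested by exact permutation over 70 arrangements. Copies and hairpins were read from GENCODE M21 transcripts (GRCm38), apart from the mm39 coordinates. Named beside the 10 genes are Mtdh, Gclc, defining cell markers, the 4 pathway genes with the smallest p in each direction, the highest of each list, and the 3 nearest profiles. The highest gene of 1 list is not reported here. Alternatives were other pseudocounts, filters, scalings, weights, a replicate block and leaving out each library, and the sums with copies were added after the values had been seen.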

Additional observations from a re-analysis of the deposited data

Results flagged for a closer look

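In 64 groups of 4 values, the highest or lowest library was set against the other 3, and 2 stood apart, where chance gives about 1 in 20. Cd163 was at 472 in KO library 1, and the other KO libraries were at 2.20 to 63.9. Ftl1 summed with its copy was at 6363 in WT library 3, and the other WT libraries were at 4686 to 4969.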

How the results depend on the processing

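None of the 10 genes was called under any alternative or omission run, and their adjusted p stayed at 0.402 or above. Over all genes, 38 calls became 63 with a pseudocount of 10, 15 with a mean of at least 50, 112 with library weights (where 1 pathway gene, Cd163, was called) and 7 to 70 when 1 library was left out. With the replicate number as a block the count was 0 (1101 genes at an unadjusted p under 0.05), and Mtdh lost its call (adjusted p = 0.0627), as with a mean of at least 50 (0.0945). Same-numbered libraries correlated at only 0.02 to 0.08, none best with its own number, so the libraries were taken to share only a number. Signs turned for Gpx4 (-0.27 with copies, -0.34 to 1.98 leaving out a library), Ftl1 (0.12 with copies), Hmox1 (-0.50 to 0.013 leaving out a library) and the ratio of Gpx4 to Acsl4 (-0.56 with copies, -0.68 to 1.72). They also turned for Bach1 (-0.041 with quantile normalization, -0.029 with scaling to the sum without small RNAs, -0.15 to 0.24 leaving out a library) and Far1 (0.017 with weights, -0.12 to 0.058). The cause was not tested. With a mean of at least 50 Gpx4 was not tested. The median of all genes moved from -0.12 to between -0.16 and -0.05 over the scalings. Low listed values limit Gpx4 and Slc40a1 most, and 70.7% to 100% of the Gpx4 sum was listed under its copies.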

Other observations

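Slc39a8, a zinc and iron importer named here after its values were seen, was at 82.2, 1.10, 58.4 and 54.5 in KO and at 106, 186, 241 and 92.2 in WT. It was the only one of the 74 pathway genes with every KO library below every WT library, as were 2.09% of all genes tested, and its log2 fold change of -2.40 (SE 1.44) did not pass (limma adjusted p = 0.770). WT library 4 held the highest or lowest value of 6 of the 10 ferroptosis and iron genes, against 13.0% of all genes. For KO library 2 it was 5, against 36.9%. These libraries are named because their counts were the highest of the 8, and the shares over all genes are not matched for level.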
